A study of Homo sapiens with 12 samples.

Results

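The genes described here are 48 genes of mitosis: the cyclins and kinases that start it, the checkpoint and kinetochore genes that attach chromosomes to the spindle, and the motors, spindle factors and contractile-ring genes that separate the chromosomes and divide the cell. They were taken by symbol from the tables of gene expression that the authors deposited. Each of the 48 symbols was listed 1 time in each table, among 13554 genes in the knockdown table and 13583 in that of the overexpression, and all 48 were tested in every comparison. RNA had been sequenced from SW480, an established line from a human colon adenocarcinoma, in stable transfectants in which GPD1L was lowered or raised. The product of GPD1L resembles GPD1, the cytosolic glycerol-3-phosphate dehydrogenase, which links glycolysis to glycerolipid synthesis. The series addresses a tumour-suppressor role of this gene in colorectal cancer. The shGPD1L group carried a short hairpin RNA against GPD1L and the shNC group a control hairpin. The OE group overexpressed GPD1L and the Vector group carried the expression vector. Each group had 3 libraries. The labels name no treatment, hairpin sequence, promoter or clone, and leave unstated whether replicates were grown as separate cultures. Each group was 1 line or pool as far as the labels say, so an effect of GPD1L cannot be told apart from other differences between lines.

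A dividing cell enters mitosis when cyclin B and CDK1 form an active kinase, which PLK1 and the Aurora kinases support. Kinetochores then capture spindle microtubules while the spindle checkpoint holds back the anaphase-promoting complex, and anaphase and cytokinesis follow when that ubiquitin ligase is released. The messenger RNAs of most of these genes build up together in G2 and mitosis, through promoters that hold a cell cycle genes homology region (CHR), read by the DREAM and MYBL2-MuvB complexes, and CCAAT boxes bound by NF-Y, with FOXM1 as a further activator. In bulk RNA, a different share of cells in G2 and mitosis and a different amount of RNA in each such cell cannot be told apart.

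Most members with a promoter sequence hold these letters, and 7 promoters are shown as examples. They are 5 genes called higher in the overexpression with both elements, CDC20 with both and no call, and AURKB without the CHR letters. Members with CHR letters and no CCAAT, among them CENPE, NDC80, KIF2C, SMC4 and NCAPG, are not shown. The choice does not follow the share called, which was 13 of 28 members with both elements and 9 of 13 others with a promoter sequence. The sequences are from RefSeq (GRCh38.p14), 130 bases each, printed 5′ to 3′ on the strand of the gene and overlapping no exon of GENCODE release 29; that of AURKB lies within the gene, downstream of its most distant annotated start. They lie at chr10:128126424-128126553 on the minus strand for MKI67, chr1:214603065-214603194 on the plus strand for CENPF, chr1:197146695-197146824 on the minus strand for ASPM and chr17:40417951-40418080 on the minus strand for TOP2A. The others lie at chr3:172750552-172750681 on the plus strand for ECT2, chr1:43358825-43358954 on the plus strand for CDC20 and chr17:8210255-8210384 on the minus strand for AURKB. Capitals mark the CHR letters (TTTGAA or TTTAAA, or TTCAAA where they read on the other strand) and the NF-Y letters (CCAAT, or ATTGG on the other strand).
MKI67: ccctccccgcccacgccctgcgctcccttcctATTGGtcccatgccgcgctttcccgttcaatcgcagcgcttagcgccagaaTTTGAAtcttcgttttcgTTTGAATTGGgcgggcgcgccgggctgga
CENPF: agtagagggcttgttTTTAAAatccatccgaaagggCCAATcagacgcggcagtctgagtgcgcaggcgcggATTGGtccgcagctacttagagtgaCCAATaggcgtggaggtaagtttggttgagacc
ASPM: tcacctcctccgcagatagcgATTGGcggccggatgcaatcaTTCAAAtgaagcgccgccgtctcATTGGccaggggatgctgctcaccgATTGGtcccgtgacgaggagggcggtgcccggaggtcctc
TOP2A: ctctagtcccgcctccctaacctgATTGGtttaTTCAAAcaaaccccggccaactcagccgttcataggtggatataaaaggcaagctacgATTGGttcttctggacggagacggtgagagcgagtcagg
ECT2: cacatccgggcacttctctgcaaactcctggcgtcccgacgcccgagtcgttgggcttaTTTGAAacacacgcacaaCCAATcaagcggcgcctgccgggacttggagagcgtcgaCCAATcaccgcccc
CDC20: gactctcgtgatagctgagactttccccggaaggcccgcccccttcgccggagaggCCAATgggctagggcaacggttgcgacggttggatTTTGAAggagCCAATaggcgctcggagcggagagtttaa
AURKB: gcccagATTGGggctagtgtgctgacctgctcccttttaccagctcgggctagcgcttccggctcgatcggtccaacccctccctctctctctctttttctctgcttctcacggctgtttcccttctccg
In MKI67 the CHR letters nearest the gene run into an ATTGG match and share a base with it.

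RefSeq promoter windows, from 250 bases before to 50 bases after a transcription start, were found for 41 of the 48 members, in 53 windows because 8 members have several starts. TTTGAA or TTTAAA, on either strand, stood in a window of 38 of the 41 members (92.7%), and in 27.9% of all 27305 genes of the table. By window, these letters stood in 79.2% of the 53 member windows and in 24.0% of all 35116 windows. The 3 members without them were AURKB, BUB1 and CCNA2. CCAAT, on either strand, stood in a window of 32 of the 41 members (78.0%) and of 39.7% of all genes, or in 69.8% of member windows and 34.6% of all windows. Both kinds stood in the same window for 28 members (68.3%) and for 11.2% of all genes. In the 150 bases nearest the start the letters TTTGAA or TTTAAA were found for 90.2% of the members and 13.6% of all genes, and CCAAT for 70.7% and 25.3%. The plot of promoter positions shows where the matches lay. CHR letters peaked in the last 50 bases before the start, where each 25-base bin held a match in 24.5% and 26.4% of member windows against 3.08% and 1.87% of all windows. CCAAT peaked between 100 and 51 bases before the start, in 30.2% and 41.5% of member windows against 6.48% and 7.62% of all windows. These matches are letters in a window and not measured binding, and a window without them says only that the letters are not there.

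**Figure D1:**
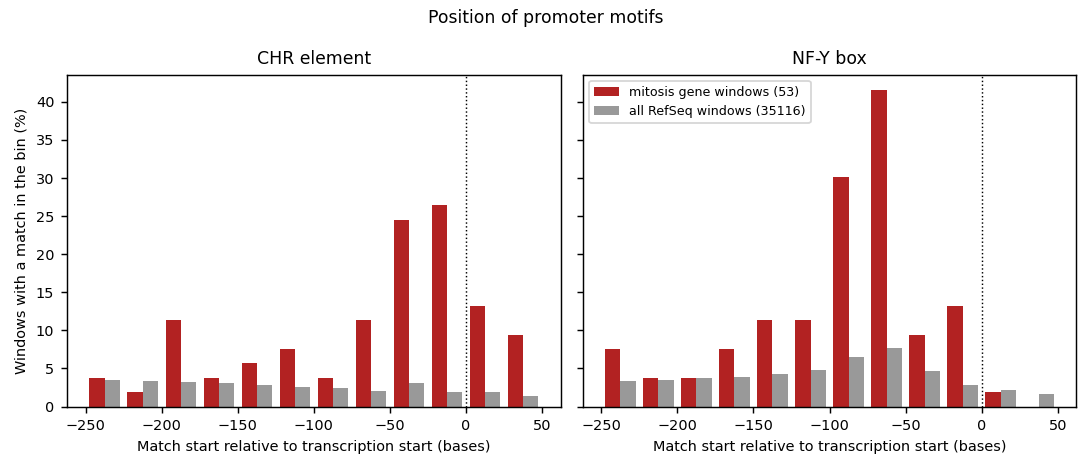
Share of promoter windows (percent, vertical axis) with a match starting in each 25-base bin, by distance from the transcription start in bases (horizontal axis), for the CHR letters at the left and CCAAT at the right. Red bars are the 53 windows of the mitosis genes and grey bars all 35116 RefSeq windows; the red bars stand highest just before the start for the CHR letters and between 100 and 51 bases before it for CCAAT.

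Expression is given as FPKM, fragments scaled to transcript length and to the mapped fragments of the library. A change is the treated minus the control mean of log2(FPKM + 1), a scale that shrinks changes of low genes, with the standard error (SE) from limma. A gene was called when its Benjamini-Hochberg adjusted p over all genes tested was under 0.05. The listed values summed to between 421714 and 444794 FPKM per library, and read numbers are not known. GPD1L itself was at 8.60 ± 0.55 FPKM (SD, n = 3) in shNC and 1.68 ± 0.49 in shGPD1L, and at 10.7 ± 0.45 in Vector and 22.4 ± 0.37 in OE. The library shGPD1L replicate 3 stood apart, at 29.1 on the first principal component of its table against -12.1 to 0.32 in the other 5 libraries, so knockdown results are given with and without it. Of the colon epithelium markers 9 of 10 were listed in the knockdown table and 10 of 10 in the overexpression table, with summed levels of 3804 to 5446 FPKM over all libraries, and KRT8 was the highest. Of the markers of other cell types, 2 of 6 fibroblast genes, 2 of 6 immune genes and 0 of 4 endothelial genes were listed. The fibroblast genes summed to 1.15 to 1.63 FPKM in the knockdown table, 2.06 to 2.31 FPKM in Vector and 1.19 to 1.37 FPKM in OE, and the immune genes CD68 and CD14 to 17.3 to 32.0 FPKM, while the defining immune genes PTPRC and CD3E were not listed.

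All 48 mitosis genes were expressed in every library of both control lines. The median of the members' mean levels was 32.4 FPKM in shNC, 32.8 in shGPD1L, 24.1 in Vector and 27.8 in OE. CDC20, the activator of the anaphase-promoting complex, had the highest level in shNC at 142 FPKM. TOP2A, the topoisomerase that untangles chromosomes, had the highest in Vector at 86.8 FPKM. CENPE, a kinetochore motor, was lowest in both, at 5.64 FPKM in shNC and 4.05 FPKM in Vector. The tables may have been scaled separately, so levels were not tested across them.

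GPD1L overexpression came with a broad, modest rise of the mitosis genes. Of the 48 members 26 were called higher in OE than in Vector and 0 lower, where 12.2% of all 12208 genes tested were called higher and 10.3% lower. The called members rose by 0.15 to 0.45 on the log2 scale, with a median of 0.27, which is a ratio of mean FPKM from 1.12 to 1.46. Over all 48 members the median change was 0.18, against 0.02 over all genes. A positive change was found in 43 members and in 6717 of all 12208 genes. In 33 members every OE library lay above every Vector library, as in 24.2% of all genes, and in 1 member, BIRC5, every OE library lay below, as in 17.6% of all genes. An unadjusted p under 0.05 was reached by 34 members, and by 37.9% of all genes in either direction. Of the 13 mitochondrially encoded genes, whose share of the RNA can vary with its quality, 0 were called higher and 6 lower in OE (1 and 2 with quantile normalization), with medians of -0.16, -0.17 and -0.29 in OE replicates 1 to 3. Their part in the rise of the mitosis genes was not tested. The OE libraries moved alike: the median of the 48 members lay 0.19, 0.18 and 0.21 above the Vector mean in OE replicates 1, 2 and 3. In these libraries 41, 45 and 41 members lay above it. Of all genes tested 53.2%, 53.4% and 57.3% lay above their Vector mean, with medians of 0.02, 0.02 and 0.03. Fewer members passed when a library was left out, from 15 without Vector replicate 2 or OE replicate 3, 16 without Vector replicate 3 and 17 without OE replicate 2, to 20 without Vector replicate 1. The median stayed between 0.18 and 0.20 in these fits, for which counts over all genes are not given. With library totals set equal, 33 members were called higher and 0 lower, beside 2441 higher and 975 lower genes in all, where 1484 and 1256 were called on the deposited values.

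**Figure D2:**
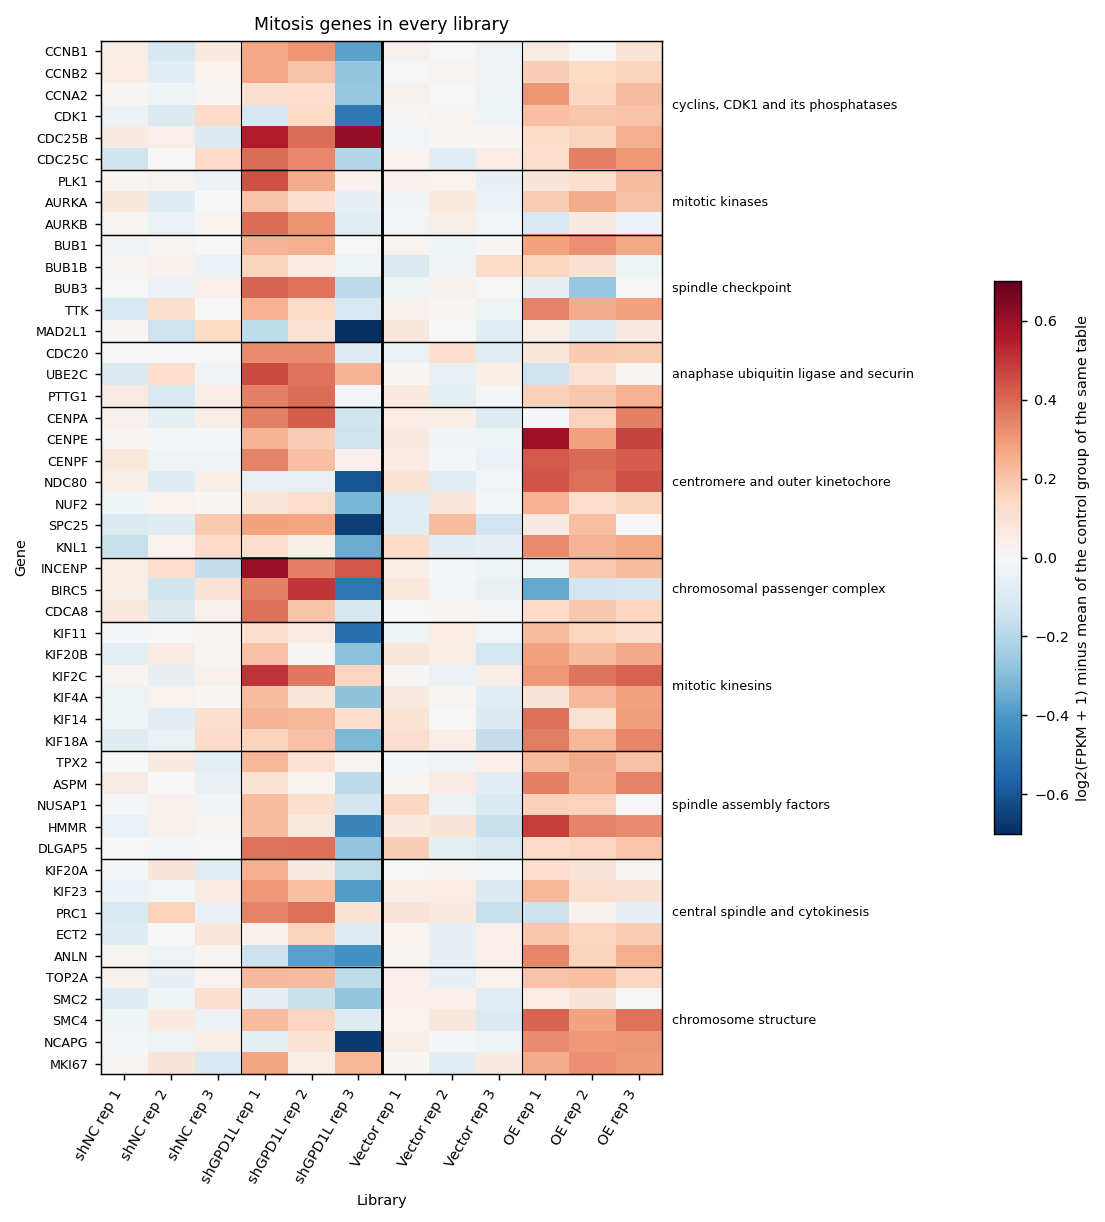
Difference of log2(FPKM + 1) from the mean of the control group of the same table (colour, red higher and blue lower) for each mitosis gene (rows, grouped by role) in each of the 12 libraries (columns). The 3 OE columns are red for most genes. In the knockdown replicates 1 and 2 are mostly red and replicate 3 is mostly blue. In shGPD1L replicate 3, 11 of 48 members lay above the control mean, against 40.4% of all genes tested.

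Of the regulators that start mitosis 5 of 6 were called higher, CCNB1 not among them. CDC25C, a phosphatase that activates CDK1, had 15.4, 14.2 and 15.7 FPKM in Vector replicates 1 to 3 and 16.5, 19.5 and 18.8 FPKM in OE replicates 1 to 3, a log2 change of 0.26 ± 0.07 (SE; limma, adjusted p = 0.0352). CCNA2, the cyclin of S phase and early mitosis, was at 35.7, 34.9 and 34.1 FPKM and 43.5, 38.6 and 40.8 FPKM, a change of 0.22 ± 0.05 (adjusted p = 0.0212). In both genes all OE libraries lay above all Vector libraries. CDK1, the kinase that drives entry into mitosis, went from 51.2, 51.9 and 49.8 FPKM in Vector to 59.1, 58.4 and 58.7 FPKM in OE, a change of 0.20 ± 0.04 (adjusted p = 0.0103). CDC25B, a second activator of CDK1, went from 54.4, 55.8 and 55.5 FPKM to 60.5, 61.7 and 65.9 FPKM, a change of 0.18 ± 0.05 (adjusted p = 0.0269). The OE libraries of CDK1 lay within 1 FPKM of each other, and those of CDC25B spread more. CCNB2, a mitotic B-type cyclin, was at 45.1, 45.5 and 44.2 FPKM and 50.7, 49.6 and 50.2 FPKM, a change of 0.15 ± 0.04 (adjusted p = 0.0279) and the smallest among the called members. Its partner in function CCNB1, the main cyclin of mitotic entry, was at 64.7, 63.4 and 61.7 FPKM in Vector and 65.8, 63.3 and 67.6 FPKM in OE, with overlapping groups and a change of 0.05 ± 0.04 (adjusted p = 0.443).

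Among the kinases that act on spindle and checkpoint, some were called and others were not. AURKA, the kinase of centrosome maturation, was at 37.8, 40.7 and 37.2 FPKM in Vector and 43.8, 46.3 and 44.6 FPKM in OE, a log2 change of 0.21 ± 0.05 (limma, adjusted p = 0.0196). PLK1, which acts from centrosome to cytokinesis, had a change of 0.14 ± 0.05 and did not pass (adjusted p = 0.0787), and AURKB, the kinase of the chromosomal passenger complex, was at -0.03 ± 0.05. AURKA was thus the only called gene among these 3 kinases, although whether its change differed from theirs was not tested. In PLK1, too, all OE libraries lay above all Vector libraries. In the spindle checkpoint 2 of 5 genes were called, both of them kinases. BUB1, a checkpoint kinase at the kinetochore, went from 28.2, 27.2 and 27.9 FPKM to 33.9, 34.9 and 33.7 FPKM, a change of 0.29 ± 0.04 (adjusted p = 0.00367). TTK, also known as MPS1, which starts checkpoint signalling, went from 19.0, 18.6 and 18.1 FPKM to 23.9, 22.4 and 22.8 FPKM, a change of 0.30 ± 0.05 (adjusted p = 0.00535). All OE values of BUB1 and TTK lay above all Vector values. The changes of the other checkpoint genes BUB1B, MAD2L1 and BUB3 were 0.08 ± 0.07, 0.01 ± 0.07 and -0.11 ± 0.07, and none passed.

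Of the centromere and outer kinetochore genes 4 of 7 were called higher, and on the deposited values CENPE had the largest change of all 48 members. CENPE, a motor that moves chromosomes to the metaphase plate (chr4:103105806-103198409, minus strand), was at 4.27, 3.95 and 3.93 FPKM in Vector and 6.61, 5.15 and 5.99 FPKM in OE, a log2 change of 0.45 ± 0.09 and the largest of all members (limma, adjusted p = 0.0103). NDC80, the subunit that gives the microtubule-binding complex its name (chr18:2571511-2616635, plus strand), was at 17.8, 15.6 and 16.3 FPKM and 22.8, 21.9 and 22.9 FPKM, a change of 0.42 ± 0.06 (adjusted p = 0.00263). CENPF, a protein of the outer corona (chr1:214603195-214664588, plus strand; its promoter is printed above), went from 17.5, 16.7 and 16.2 FPKM to 23.0, 22.4 and 22.9 FPKM, a change of 0.42 ± 0.05 (adjusted p = 0.00146). In all 3 genes the lowest OE library lay above the highest Vector library, and the OE values of CENPF lay closest together. KNL1, the scaffold on which checkpoint proteins gather, went from 7.10, 6.02 and 6.11 FPKM to 8.30, 7.72 and 7.92 FPKM, a change of 0.28 ± 0.07 (adjusted p = 0.0302). NUF2 and SPC25, partners of NDC80 in the same complex, had changes of 0.17 ± 0.06 and 0.09 ± 0.10, and CENPA, the histone variant that marks centromeres, of 0.17 ± 0.09; none passed. The role had 4 of 7 genes called and a median change of 0.28.

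The ubiquitin ligase and passenger complex genes moved little or apart. PTTG1, or securin, which holds separase inactive until anaphase, was at 60.5, 55.0 and 57.2 FPKM in Vector and 64.7, 65.8 and 68.3 FPKM in OE, a log2 change of 0.20 ± 0.05 (limma, adjusted p = 0.0221). It has near-identical intronless copies in the genome, so its value may include reads of those. CDC20 had a change of 0.15 ± 0.06 and UBE2C, the ubiquitin-conjugating enzyme of the anaphase-promoting complex, of -0.01 ± 0.07, neither called. CDCA8, or borealin, was the called member of the passenger complex, at 20.4, 20.6 and 20.3 FPKM and 22.5, 23.4 and 22.8 FPKM, a change of 0.16 ± 0.05 (adjusted p = 0.0416). BIRC5, or survivin, its partner in that complex, was at 38.1, 35.6 and 34.9 FPKM in Vector and 27.9, 32.8 and 33.2 FPKM in OE. All its OE libraries lay below all Vector libraries, at a change of -0.20 ± 0.07, which did not pass (adjusted p = 0.0734) except with median-of-ratios scaling, where it was -0.22 (adjusted p = 0.0484). CDCA8 did not pass in 10 of 18 alternatives, among them median-of-ratios scaling (adjusted p = 0.066), quantile normalization (adjusted p = 0.0874) and each library left out (adjusted p from 0.0638 to 0.12). INCENP, the scaffold of the complex, had a change of 0.12 ± 0.07 and was not called.

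Of the mitotic kinesins 3 of 6 were called and all 6 had positive changes. KIF2C, or MCAK, which takes microtubules apart at kinetochores (chr1:44739818-44767767, plus strand), was at 29.4, 28.2 and 30.1 FPKM in Vector and 36.2, 38.1 and 39.3 FPKM in OE, a log2 change of 0.36 ± 0.05 (limma, adjusted p = 0.0025). KIF18A, which damps chromosome oscillation, went from 8.56, 8.08 and 6.82 FPKM to 10.3, 9.33 and 10.1 FPKM, a change of 0.31 ± 0.08 (adjusted p = 0.0326). KIF20B, a kinesin of late cytokinesis, went from 13.0, 12.6 and 11.2 FPKM to 15.1, 14.4 and 14.9 FPKM, a change of 0.26 ± 0.07 (adjusted p = 0.0258). None of these kinesins had an OE library within the Vector range. KIF11, the motor that separates spindle poles, KIF4A and KIF14 had changes of 0.16 ± 0.05, 0.20 ± 0.07 and 0.26 ± 0.09 (adjusted p = 0.055, 0.0686 and 0.0713). KIF4A also has a near-identical intronless copy.

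Among spindle assembly factors 3 of 5 were called higher. HMMR, a spindle pole protein, was at 28.1, 28.7 and 24.0 FPKM in Vector and 37.9, 34.4 and 34.0 FPKM in OE, a log2 change of 0.39 ± 0.08 (limma, adjusted p = 0.00993). ASPM, which focuses spindle poles, went from 10.9, 11.2 and 10.1 FPKM to 14.0, 13.0 and 13.9 FPKM, a change of 0.32 ± 0.06 (adjusted p = 0.00832). TPX2, which activates AURKA on the spindle, went from 49.0, 48.6 and 50.7 FPKM to 57.8, 59.5 and 57.2 FPKM, a change of 0.23 ± 0.04 (adjusted p = 0.00738). The groups of these 3 genes did not overlap, and NUSAP1 and DLGAP5, both microtubule-binding spindle proteins, had changes of 0.11 ± 0.07 and 0.16 ± 0.08 and were not called. In the central spindle and cytokinesis role 2 of 5 were called. ANLN, or anillin, the scaffold of the contractile ring (chr7:36389806-36453791, plus strand), was at 22.8, 21.6 and 23.0 FPKM in Vector and 28.7, 25.2 and 27.0 FPKM in OE, a change of 0.25 ± 0.06 (adjusted p = 0.0201). ECT2, which activates RhoA at the division site, went from 69.5, 65.3 and 69.8 FPKM to 78.2, 75.8 and 77.3 FPKM, a change of 0.18 ± 0.04 (adjusted p = 0.0232). Every OE library of both lay above every Vector library. The motors KIF20A and KIF23 had changes of 0.08 ± 0.05 and 0.15 ± 0.06, and PRC1, which bundles the central spindle, of -0.06 ± 0.08, none called.

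Of the chromosome structure genes 4 of 5 were called higher. SMC4, a condensin core subunit, was at 28.2, 29.3 and 25.7 FPKM in Vector and 37.0, 33.8 and 36.3 FPKM in OE, a log2 change of 0.35 ± 0.06 (limma, adjusted p = 0.00627). NCAPG, a regulatory subunit of the same complex, went from 20.8, 19.9 and 19.6 FPKM to 25.5, 25.0 and 25.1 FPKM, a change of 0.31 ± 0.05 (adjusted p = 0.00358). MKI67, the Ki-67 protein that coats mitotic chromosomes and is used as a proliferation marker, went from 27.6, 25.8 and 28.6 FPKM to 32.8, 34.4 and 33.8 FPKM, a change of 0.29 ± 0.05 (adjusted p = 0.007). TOP2A was at 88.8, 83.4 and 88.1 FPKM and 99.6, 101 and 96.0 FPKM, a change of 0.18 ± 0.04 (adjusted p = 0.0192). The OE libraries of all 4 lay above the Vector libraries, and SMC2, the other condensin core subunit, was at 0.05 ± 0.05 and not called. Strandedness is not stated, and the annotated spans of 10 members overlap a gene on the other strand. Among them are the called genes CCNA2, CDC25C, KIF18A, ANLN, SMC4 and NCAPG. They overlap EXOSC9, FAM53C, METTL15, KIAA0895, IFT80 and TRIM59, and LCORL respectively. Whether exons overlap was not checked, so how many reads could be mixed is not known. Another 4 members overlap a gene on the same strand.

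**Figure D3:**
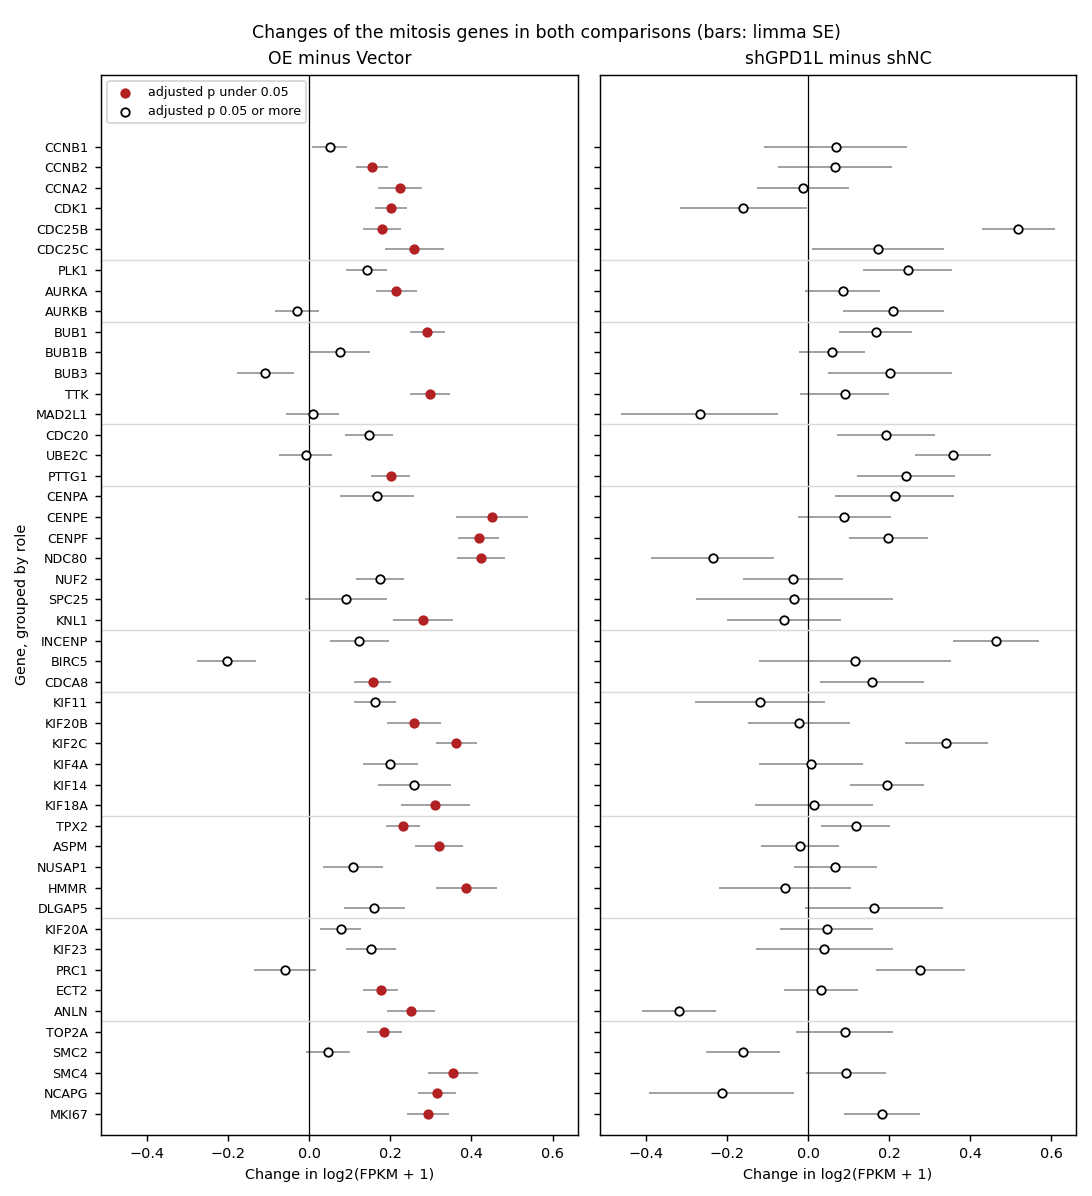
Change in log2(FPKM + 1) (horizontal axis, with limma SE bars) of each of the 48 mitosis genes (rows, grouped by role), OE minus Vector at the left and shGPD1L minus shNC at the right. Filled red points have an adjusted p under 0.05, which 26 genes reached in the overexpression and 0 in the knockdown.

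Other cell-cycle genes, from lists that exclude the 48, did not all move the same way in the overexpression, where 12.2% of all genes were called higher and 10.3% lower. Of 33 other spindle and centrosome genes 10 were called higher and 0 lower, with a median change of 0.15. The largest were KNSTRN, a kinetochore-end adaptor, at 0.37 ± 0.05, and CKAP2L, a spindle protein, at 0.35 ± 0.06. Of 17 cohesin, separase and other condensin genes 6 were called higher, led by RAD21 at 0.23 ± 0.04 and PDS5A at 0.22 ± 0.04, both of cohesin, and 1 lower, the condensin II subunit NCAPD3 at -0.16 ± 0.05. Of 32 other centromere and kinetochore genes 3 were called higher, among them SKA1 at 0.45 ± 0.06 and HJURP at 0.33 ± 0.05, and 2 lower, CENPU at -0.23 ± 0.05 and CENPM at -0.22 ± 0.06. The median of this list was -0.04, beside 0.28 for the 7 kinetochore members. Neither count of this list was above the share over all genes. Of 17 anaphase-promoting complex genes 2 were called higher, CDC27 at 0.23 ± 0.06 and CDC16 at 0.19 ± 0.06. In the same list 2 were lower, ANAPC15 at -0.40 ± 0.06 and ANAPC13 at -0.16 ± 0.04. Both counts are near the shares over all genes. Of 12 other regulators of mitotic entry 0 were called higher and 1 lower, CDC25A, the phosphatase that acts earliest in the cycle, at -0.45 ± 0.09.

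DNA replication and G1/S genes went the other way. Of 37 such genes 22 were called lower and 1 higher in OE, with a median change of -0.27. UNG, a uracil glycosylase of replicating DNA, had a log2 change of -0.59 ± 0.06, FEN1, the nuclease that matures Okazaki fragments, of -0.58 ± 0.07, and RRM2, a ribonucleotide reductase subunit, the 1 called higher, of 0.15 ± 0.05. By library the median of these genes lay at -0.25, -0.26 and -0.28 in OE replicates 1 to 3, while that of the mitosis genes lay at 0.19, 0.18 and 0.21, as the plot of list medians shows. The count was 20 to 23 lower under the other scalings and 21 with the transcript GC trend removed. CDKN1A, or p21, the CDK inhibitor that p53 and other signals induce, was called higher in OE at 0.64 ± 0.04 (limma, adjusted p = 0.000179) and CDKN2D, another CDK inhibitor, at 0.46 ± 0.09. Of 17 genes for regulators of late cell-cycle promoters 2 were called higher, LIN54, the MuvB subunit that binds the CHR, at 0.36 ± 0.06 and E2F7, a repressor, at 0.27 ± 0.07. Another 2 were lower, RBBP4, a MuvB subunit, at -0.32 ± 0.06 and TFDP1, the partner of the E2F factors, at -0.29 ± 0.05. For these 17 genes both counts are near the shares over all genes tested, 12.2% higher and 10.3% lower. FOXM1 was at 35.8 ± 1.15 FPKM (SD, n = 3) in Vector and 36.6 ± 0.82 in OE, a change of 0.03 ± 0.05 (limma, adjusted p = 0.658). MYBL2 was at 43.0 ± 1.94 FPKM and 40.2 ± 2.38, a change of -0.10 ± 0.06 (adjusted p = 0.258). Neither activator was called.

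**Figure D4:**
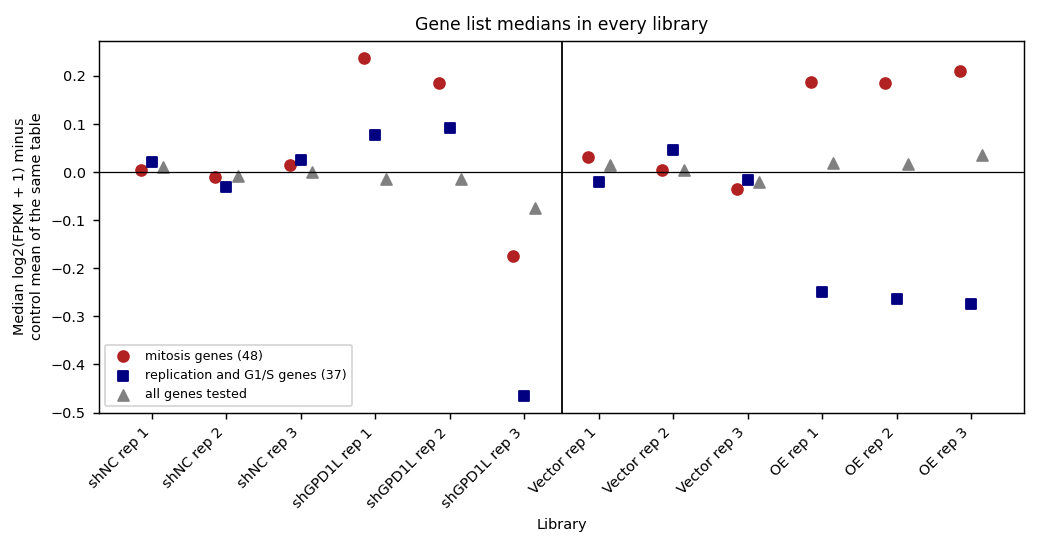
Median over a gene list of log2(FPKM + 1) minus the control mean of the same table (vertical axis) in each of the 12 libraries (horizontal axis), for the 48 mitosis genes (red circles), 37 replication and G1/S genes (blue squares) and all genes tested (grey triangles). The red and blue points part in the 3 OE libraries and both fall in shGPD1L replicate 3, to -0.18 and -0.46.

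Transcript base composition moved with these changes. The longest coding transcript of the members had a median GC content of 42.2%, against 49.3% for all genes tested. Across 11382 genes, which are not independent replicates, GC content and the OE change had a Pearson r of -0.31, and across the 48 members of -0.38; these points share the same 6 libraries. Among genes under 40% GC 25.4% of 1672 were called higher, and 11 of 17 members. Between 45% and 50% GC 11.2% of 1883 genes were called higher, and 5 of 10 members, and over 55% 6.3% of 3761 genes and 1 of 5 members, CDC25B. In every class the median change of the members was above that of all genes, at 0.26 against 0.14 under 40% and 0.14 against -0.05 over 55%. With the GC trend removed in each library, an alternative chosen after seeing the data, 21 members were called higher and 0 lower, where 12.2% of all genes were called higher. Of these 21, 19 were among the 26 called on the deposited values, and PLK1 and CDC20 were added. CDK1, KNL1, KIF20B, KIF18A, ECT2, ANLN and TOP2A no longer passed. The change of CDK1 was 0.07 and that of ECT2 0.06. That of CENPE was 0.30, and KIF2C then had the largest change of the members at 0.38. Of the 7 centromere and outer kinetochore genes 3 were called in this fit, at a median change of 0.17.

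**Figure D5:**
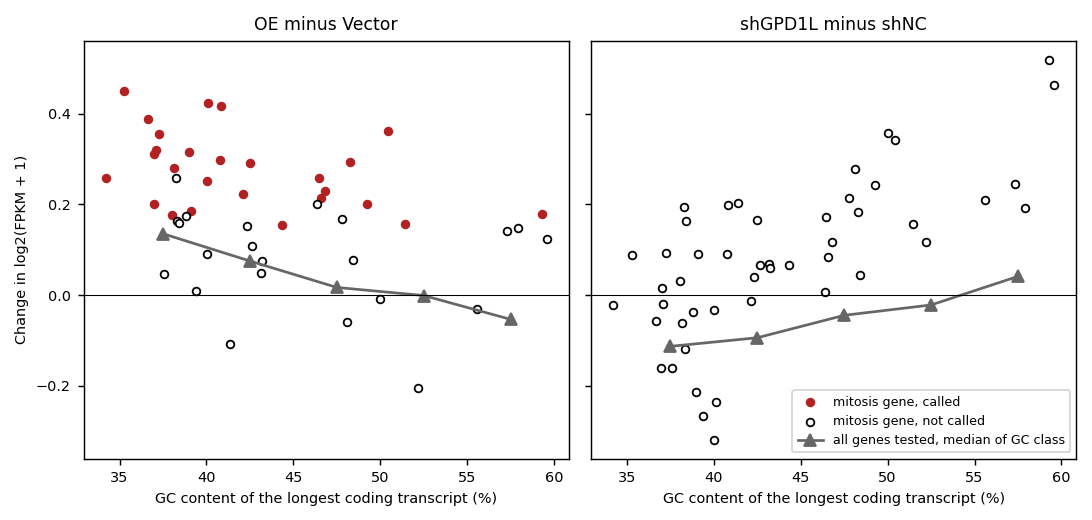
Change in log2(FPKM + 1) (vertical axis) against the GC content of the longest coding transcript in percent (horizontal axis) for the 48 mitosis genes, OE minus Vector at the left and shGPD1L minus shNC at the right. Filled red points are called members, open points members not called, and grey triangles the median of all genes tested in each GC class; that median falls with GC in the overexpression, from 0.14 to -0.05, and rises with it in the knockdown, from -0.11 to 0.04.

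Members with and without these promoter letters were both among those that rose. Of the 28 members with both elements in a window 13 were called higher in OE, with a median change of 0.16. Of the 13 other members with promoter windows 9 were called, with a median of 0.25, where 12.2% of all genes were called higher. CENPE, NDC80, KIF2C, SMC4 and NCAPG, which are among the members that rose most, have no CCAAT match in their windows. Of the other members without CCAAT, ANLN was called and BUB1B, NUF2 and SMC2 were not. CENPF, HMMR and ASPM, also among the largest changes, have both elements. These groups were described without a test.

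GPD1L knockdown gave no called member in either direction over its 3 libraries, where 0.115% of all 12156 genes tested were called higher and 0.477% lower. The median change of the 48 members was 0.09, against -0.04 over all genes. Positive changes were found in 34 members and in 5056 of all 12156 genes. At an unadjusted p under 0.05 there were 6 members, or 12.5% of the 48, against 16.3% of all genes: CDC25B, UBE2C, INCENP, KIF2C and PRC1 toward higher values and ANLN toward lower ones. In 6 members every shGPD1L library lay above every shNC library, where 9.54% of all genes did so (CDC25B, PLK1, UBE2C, INCENP, KIF2C and KIF14). In 1 member, ANLN, every shGPD1L library lay below, where 15.1% of all genes did so.

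Replicates of the knockdown disagreed over the mitosis genes. Of the 48 members 42 and 45 lay above the shNC mean in shGPD1L replicates 1 and 2 and 11 in replicate 3. The median over the members was 0.24, 0.19 and -0.18. Of all genes tested 47.3%, 47.0% and 40.4% lay above their shNC mean in these libraries, with medians of -0.01, -0.01 and -0.07. In 36 members both replicates 1 and 2 lay above every shNC library, as in 19% of all genes. Replicate 3 was the lowest of the 3 shGPD1L libraries for 45 members and the lowest of all 6 libraries for 33. The share of all genes for which replicate 3 was lowest was not counted. CCNB1 had 90.3, 81.3 and 92.3 FPKM in shNC and 106, 109 and 67.5 FPKM in shGPD1L, a log2 change of 0.07 ± 0.18 (limma, adjusted p = 0.885). CDK1 was at 49.6, 47.7 and 56.3 FPKM and 47.0, 56.5 and 35.7 FPKM, a change of -0.16 ± 0.16 (adjusted p = 0.655). TOP2A was at 87.2, 82.2 and 87.0 FPKM and 100.2, 99.8 and 75.3 FPKM, a change of 0.09 ± 0.12 (adjusted p = 0.751). In each of these 3 genes shGPD1L replicate 3 was the lowest of the 6 libraries. Other lists moved in that library too, at medians of 0.73 for 16 immediate-early genes, 0.72 for 14 NRF2 targets and -0.46 for the replication and G1/S genes, against 0.11, -0.11 and 0.08 in replicate 1. Their part in the values of the mitosis genes was not tested.

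The members with the largest positive changes were CDC25B, INCENP and UBE2C. CDC25B was at 44.7, 43.9 and 40.1 FPKM in shNC and 63.3, 56.4 and 66.1 FPKM in shGPD1L, a log2 change of 0.52 ± 0.09 (limma, adjusted p = 0.0572). INCENP was at 20.3, 21.4 and 17.4 FPKM and 30.4, 25.3 and 26.9 FPKM, a change of 0.46 ± 0.11 (adjusted p = 0.111). UBE2C was at 76.9, 89.0 and 80.7 FPKM and 113, 107 and 96.9 FPKM, a change of 0.36 ± 0.09 (adjusted p = 0.142). All 3 shGPD1L libraries of these genes lay above all shNC libraries, and none passed after adjustment. KIF2C was at 32.7, 30.9 and 33.1 FPKM and 46.2, 41.9 and 35.9 FPKM, a change of 0.34 ± 0.10 (adjusted p = 0.18). PLK1 was at 67.8, 68.2 and 65.1 FPKM and 91.6, 80.4 and 68.5 FPKM, a change of 0.25 ± 0.11 (adjusted p = 0.32). MKI67 was at 51.4, 54.0 and 47.1 FPKM in shNC and 61.8, 52.4 and 59.8 FPKM in shGPD1L, a change of 0.18 ± 0.09 (adjusted p = 0.376). The KIF2C and PLK1 groups did not overlap, although replicate 3 of PLK1 was barely above the highest control, and the MKI67 groups overlapped.

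Toward lower values the members were fewer. ANLN was at 38.2, 36.8 and 38.0 FPKM in shNC and 33.8, 28.7 and 27.8 FPKM in shGPD1L, a log2 change of -0.32 ± 0.09 (limma, adjusted p = 0.172). MAD2L1, the checkpoint protein that binds CDC20, was at 18.2, 16.3 and 20.0 FPKM and 15.9, 19.5 and 10.6 FPKM, a change of -0.27 ± 0.19 (adjusted p = 0.534). NDC80 was at 17.5, 15.8 and 17.4 FPKM and 16.3, 16.3 and 10.8 FPKM, a change of -0.24 ± 0.15 (adjusted p = 0.489). ANLN was low in all 3 shGPD1L libraries, whereas MAD2L1 and NDC80 were low mainly in replicate 3. NCAPG was at 25.0, 24.7 and 26.2 FPKM and 24.1, 27.1 and 15.5 FPKM, a change of -0.21 ± 0.18 (adjusted p = 0.597). DLGAP5, whose change was positive, was at 25.2, 25.0 and 25.2 FPKM and 33.1, 33.1 and 20.6 FPKM, a change of 0.16 ± 0.17 (adjusted p = 0.674). In both genes replicate 3 lay below every other library.

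Without shGPD1L replicate 3, 11 members were called higher and 0 lower, where 1.8% of all genes were called higher. Positive changes were found in 44 of 48 members, with a median of 0.20, and in 5725 of all 12159 genes, with a median of -0.01. All 3 genes of the anaphase ligase and securin role passed: UBE2C at 0.42 ± 0.08, PTTG1 at 0.37 ± 0.07 and CDC20 at 0.33 ± 0.06 on the log2 scale (limma, adjusted p = 0.0289, 0.0331 and 0.0219). The kinases PLK1 and AURKB passed at 0.35 ± 0.07 and 0.35 ± 0.06 (adjusted p = 0.0388 and 0.0253). CDC25B, KIF2C and BIRC5 passed at 0.47 ± 0.08, 0.44 ± 0.07 and 0.43 ± 0.09 (adjusted p = 0.0219, 0.02 and 0.0406). BUB3, a checkpoint adaptor, CENPA and DLGAP5 passed at 0.39 ± 0.06, 0.39 ± 0.07 and 0.38 ± 0.06 (adjusted p = 0.016, 0.031 and 0.0172). Of these 11 genes 3, PTTG1, KIF2C and CDC25B, were also among the 26 called in the overexpression. That is 27.3% of the 11 and 11.5% of the 26. The 27.3% is a smaller share than the 26 of all 48 members called in the overexpression. Over the 11263 genes tested in both, 24 of 214 genes called higher in the knockdown without replicate 3 were also called higher in the overexpression (11.2% of the 214 and 1.66% of the 1442), where 12.8% of those 11263 genes were called higher in the overexpression. The treated group then had 2 libraries, and the set was chosen by leaving out the library that stood apart.

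GC content went with the knockdown change in the opposite sense to the overexpression. Pearson r was 0.29 across 11334 genes and 0.70 across the 48 members, and 0.64 across the members without shGPD1L replicate 3. INCENP and CDC25B, the members with the most GC at 59.6% and 59.3%, had the largest changes. With the GC trend removed, 0 members were called over the 3 libraries and 14 were called higher without replicate 3, where 1.5% of all genes were. FOXM1 was at 52.9 ± 1.31 FPKM (SD, n = 3) in shNC and 63.7 ± 7.53 in shGPD1L, a change of 0.26 ± 0.10 (limma, adjusted p = 0.256), and MYBL2 at 59.8 ± 3.99 and 69.5 ± 13.2, a change of 0.20 ± 0.14 (adjusted p = 0.525). Of the 37 replication and G1/S genes 0 were called in the knockdown, at a median of -0.12, which was 0.08 without replicate 3, with 3 called higher. In simulated data the test recovered fewer changed genes in the knockdown than in the overexpression. It recovered 20 of 70 genes changed by 0.5 on the log2 scale in the knockdown and 49 of 70 in the overexpression. At 0.25 it recovered 1 of 60 and 11 of 60. The simulation did not match the deposited values, where 26 of 48 members were called in the overexpression at a median change of 0.18. It therefore cannot give the power of either test on those values. Why no member was called in the knockdown was not tested.

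The effects of raising and of lowering GPD1L differed for 3 members, as tested by the difference between OE minus Vector and shGPD1L minus shNC over all 12 libraries. Of 11385 genes tested 9.09% had a called positive difference and 4.97% a called negative one, and 3 of 48 members (6.25%) is no larger a share. ANLN had a difference of 0.57 ± 0.11 (limma, adjusted p = 0.00735), with lower values in the knockdown and higher ones in the overexpression. NDC80 had a difference of 0.66 ± 0.17 (adjusted p = 0.0287), with the same signs. CDC25B had a difference of -0.34 ± 0.10 (adjusted p = 0.04), its change being larger in the knockdown than in the overexpression. The difference of ANLN passed under all 24 alternatives, that of NDC80 under 15 and that of CDC25B under 12. Over the members the median difference was 0.11, against 0.06 over all genes. For the other 45 members the test did not separate the effects, which does not show that they were alike.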

How the data were processed

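RNA of 12 SW480 libraries, 3 for each of shNC, shGPD1L, Vector and OE, was enriched on oligo(dT) beads, fragmented and primed with random hexamers, per the labels' protocols. The authors deposited FPKM, 1 table for each comparison. The submitters' processing notes name HISAT2, StringTie, DESeq2 and GRCh38. Tool roles and versions, annotation and filtering: not given in the sources used here. Count tests such as DESeq2 were not applied, because FPKM are not counts. Reads could not be recovered from the low values, which share no common step, so depth is unknown and each error is the spread among libraries. Titles set the groups; in the genotype labels the number inside the gene name rises with the replicate, taken to be a slip. As separate cultures are not stated, p-values may measure technical spread alone.

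Values were taken as log2(FPKM + 1). Genes averaging 1 FPKM or more across the compared libraries were tested with limma 3.58.1 (R 4.3.3, intensity trend) over the whole table, with Benjamini-Hochberg adjustment, within each table, because the tables may have been scaled separately; this left out 1398 and 1375 genes. The difference of effects came from a contrast of 4 group means in a fit of all 12 libraries. Members, role groups and other lists were chosen with earlier results of these data known, so lists are described by counts and medians beside those of all genes, with no list test. Values per library are given for every called member, the member of each role with the largest change, and CCNB1, CDK1, TOP2A and MKI67; of each other list up to 2 called genes a direction, with FOXM1, MYBL2 and GPD1L. Positions, transcript GC and overlaps are from GENCODE release 29 (GRCh38), promoters from RefSeq. Alternatives covered pseudocounts, filters, scalings, limma settings, a replicate block and leaving out each library; removal of GC or length trends (loess, span 0.5) was added after seeing the data. No sign of pairing by replicate number was seen: deviations of same-numbered libraries correlated at -0.18 to 0.02, those of other pairs at -0.07 to 0.25. With 3 libraries a group this cannot exclude pairing. Simulated data held 200 changed genes. Of 70 genes changed by 1 log2 unit, 59 were recovered in the knockdown, among 12140 genes tested. In the overexpression 68 of 70 were recovered among 12192, and each comparison had 3 false calls. These counts do not give the power on the deposited values. Python 3.11.15 and matplotlib 3.10.9 drew the figures.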

Additional observations from a re-analysis of the deposited data

Results flagged for a closer look

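For 3 of the mitosis genes the effect of raising GPD1L differed from that of lowering it. This was tested by limma on the difference between OE minus Vector and shGPD1L minus shNC over all 12 libraries. These 3 are 6.25% of the members, while 9.09% of all 11385 genes tested had a called positive difference and 4.97% a negative one. The call of ANLN held under all 24 alternatives, that of NDC80 under 15 and that of CDC25B under 12. ANLN, the contractile-ring scaffold, had a difference of 0.57 log2 units (adjusted p = 0.00735), and all 3 libraries of each treated group lay on opposite sides of their controls. NDC80, of the outer kinetochore, had a difference of 0.66 (adjusted p = 0.0287); it was called in the overexpression and not in the knockdown. CDC25B, a phosphatase that activates CDK1, had a difference of -0.34 (adjusted p = 0.04), with values above the controls in all libraries of both treated groups. Each group had 3 libraries, too few for a check of single outlying values within a group.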

How the results depend on the processing

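Of the 26 members called in the overexpression 12 were called under every alternative and 0 changed sign under any. These 12 were ASPM, BUB1, CENPE, CENPF, HMMR, KIF2C, MKI67, NCAPG, NDC80, SMC4, TPX2 and TTK. CENPE was not tested with the filter at 5 FPKM. How many of all genes called higher passed every alternative was not counted. The number of called members ranged from 15 to 20 when 1 library was left out. It was 21 without the intensity trend and 27 with the length trend removed. For these fits counts over all genes are not given. The number was 33 with equal library totals, 26 with median-of-ratios scaling (25 higher and BIRC5 lower) and 24 with quantile normalization. Of all genes 2441 were then called higher and 975 lower, 1252 and 1465, and 1271 and 1294, respectively. On the deposited values 1484 and 1256 were called. The median change of the members, 0.18, was 0.23 with equal totals, 0.16 with median-of-ratios scaling, 0.16 with the GC trend removed and 0.18 to 0.20 with 1 library left out. In the knockdown 1 member, CDC25B, was called with the length trend removed and 0 to 11 with 1 library left out, 14 with shGPD1L replicate 3 left out and the GC trend removed together, and 0 under each other alternative. In the knockdown the changes of 10 members took the other sign without shGPD1L replicate 3. Of the 14 whose knockdown values are given by library, 5 took it under some alternative. With 1 library left out that of CCNB1 ranged from -0.052 to 0.29, of CDK1 from -0.31 to 0.012 and of NCAPG from -0.37 to 0.014. Without shGPD1L replicate 3 and with the GC trend removed CDK1 was at 0.087, NCAPG at 0.079, MAD2L1 at 0.024 and NDC80 at 0.0088; the cause was not tested. Of the 3 members with a called difference of effects 1, ANLN, remained with the GC trend removed, and the count ranged from 1 to 10 with 1 library left out. With the replicate block 19 members were called in the overexpression, all among the 26. It called 0 in the knockdown and 1, ANLN, in the difference of effects. Same-numbered libraries showed no sign of pairing, which 3 libraries a group cannot exclude. Their correlations were -0.02, -0.18 and -0.16 in the knockdown and 0.02, -0.06 and -0.04 in the overexpression. Leaving out a library also lowers the number of samples tested. Read depth is unknown, so no counting error can be given.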
